A study of Mus musculus with 12 samples.

Results

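The cytokine genes examined here were Il6, Lif and Osm of the IL-6 family, Il12a, Il12b, Il23a, Il27 and Ebi3 of the IL-12 family, and Il10. They were chosen by name, as the rows of the count table whose Ensembl identifier maps to those mouse symbols, and all 9 were found among its 55416 identifiers. RNA came from SIM-A9, an immortalised line of mouse microglia (strain C57BL/6), kept in medium with fetal bovine and horse serum. The line in its wild-type form (WT) was set beside H14, a SIM-A9 line whose samples are titled MOK-KO (KO here). Mok encodes a protein kinase of the MAP kinase group. Cells of each line were left in medium alone or received lipopolysaccharide (LPS), the bacterial cell wall component that Toll-like receptor 4 senses, for 5 h at a dose of 1 µg/mL. Each of the 4 groups had 3 libraries that the labels call biological replicates, 12 in all. How the cultures were separated, how H14 was made and whether it is a single clone are not described in the labels, so p-values reflect only how these samples varied, which may be technical. A single KO line was measured, and loss of MOK cannot be told apart from other differences between the lines.

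These cytokines are secreted by activated macrophages and microglia. IL-6, LIF and oncostatin M act through receptors that share the signalling chain gp130 (gene Il6st) and activate STAT3 through JAK kinases. The IL-12 family is built of paired chains: p35 (Il12a) with p40 (Il12b) makes IL-12, p19 (Il23a) with p40 makes IL-23, and p28 (Il27) with EBI3 makes IL-27, and they steer T and NK cell responses. IL-10 also activates STAT3 and is known for restraining the cytokine output of macrophages. In bulk RNA, fewer cells making a transcript and less transcript per cell cannot be told apart.

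Library totals ranged from 39.7 M to 72.9 M counts. Of 26420 genes that passed a filter on low counts, 7 were among the 9 cytokines, and Il12a and Il12b did not pass. Il6 passed through its LPS libraries and Il10 through its WT LPS libraries, so counts over the members that passed are a description only. Mok was at 3.35 ± 0.16 counts per M scaled counts (CPM, mean ± SD, n = 3) in WT medium, 2.50 ± 0.33 in WT LPS, 2.25 ± 0.33 in KO medium and 1.52 ± 0.19 in KO LPS, so it was detected in the KO line too. The call for Mok under LPS (edgeR adjusted p = 0.0177) was lost without WT LPS replicate 1 or 3 or KO LPS replicate 3, with adjusted p from 0.0515 to 0.0785. All 10 microglia and macrophage markers were detected in every group, with summed levels of 659 to 785 CPM in WT medium, 693 to 800 in WT LPS, 474 to 661 in KO medium and 524 to 630 in KO LPS. P2ry12, a marker of resting microglia, was at only 7 to 49 counts per library. T and NK cell markers (4 genes) summed to 2.66 to 11.2 CPM in WT medium and 10.8 to 11.2 in WT LPS. In KO they summed to 2.55 to 6.82 CPM in medium and 14.7 to 23.4 under LPS. Cd3e made up most of the sum in every LPS library. In medium Cd3e ranged from 0.995 to 9.22 CPM in WT and from 0.689 to 5.02 CPM in KO. Dendritic cell markers (3 genes, none at 0 in any group) summed to 2.62 to 2.96 CPM in WT medium, 4.54 to 5.04 in WT LPS, 6.76 to 9.10 in KO medium and 10.6 to 13.2 in KO LPS. These 3 genes did not move together. Mean Zbtb46 was 1.97 and 6.77 CPM in WT and KO medium and 2.12 and 10.0 CPM under LPS. Flt3 was also higher in KO, at 0.762 and 1.68 CPM in WT and KO LPS. Xcr1 was lower in KO, at 0.367 and 0.215 CPM in medium and 1.96 and 0.555 CPM under LPS. Processed pseudogenes held 6.58% to 13.0% of counts in WT medium and 12.8% to 14.3% in KO medium, against 6.27% to 7.35% under LPS in both lines. Lists for B cells, neutrophils and mast cells, astrocytes and neurons each summed to at most 7.06 CPM, and the list for oligodendrocytes to 6.03 to 21.8 CPM with its highest levels in KO medium, and no marker was at 0 over a whole group. Itgam, the CD11b chain of microglia and macrophages, was at 20.9 and 24.2 CPM in WT medium and LPS and at 3.67 and 2.95 CPM in the KO groups. The other markers of that list did not all follow Itgam. In WT and KO medium, Ptprc was at 187 and 188 CPM, Trem2 at 77.0 and 75.7 and Tyrobp at 98.0 and 111. Csf1r was lower in KO medium (240 and 148 CPM) and Tmem119 higher (3.86 and 5.97 CPM). The part of these marker and pseudogene differences in the results below was not tested.

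The first question was how the cytokine genes answered LPS. In WT cells, Il6, Lif, Osm, Il23a, Il27, Ebi3 and Il10 all rose, from 6.27-fold for Il10 to 848-fold for Il6 and 39.7-fold for Il27. In KO cells 6 of these 7 rose, from 2.03-fold for Il23a to 138-fold for Il6, and Il10 was not called. Called means an adjusted p under 0.05 in edgeR's quasi-likelihood test, with Benjamini-Hochberg adjustment over all genes tested. Of all genes tested, 16.3% were called higher in WT and 25.3% in KO. No member was called lower in either line by edgeR or DESeq2, or at an unadjusted p under 0.05 (0 of 7), while 16.3% of all genes were called lower in WT and 26.8% in KO. Genes called lower in WT numbered 4297, and 2094, 2513 and 2288 without WT LPS replicate 1, 2 and 3. By libraries, the LPS values lay above all medium values for the 7 tested members in WT and for 6 of them in KO. That held for 24% of all genes tested in WT and 28.8% in KO, with 19% and 32.6% entirely below. Il6 and Il10 passed the filter through LPS libraries, which favours LPS above medium, so these counts are a description. The untested Il12a and Il12b had the same order in WT, at 17 counts or fewer per library.

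Il6 was close to silent in medium and abundant under LPS. In medium, WT replicates 1, 2 and 3 held 4, 6 and 2 counts, and KO replicates 7, 7 and 5. Under LPS it was at 97.8, 58.9 and 45.2 CPM in WT and 18.6, 24.5 and 11.7 CPM in KO. All LPS libraries lay above all medium libraries, and every WT LPS library lay above every KO LPS library. The log2 fold change with LPS was 9.73 ± 0.52 (SE) in WT (adjusted p = 2.92e-07) and 7.10 ± 0.48 in KO (adjusted p = 1.59e-06). Because the medium groups held only 12 and 19 counts of Il6 in all, the ratios of summed counts are loose, at 888 in WT (95% exact interval 508 to 1719) and 144 in KO (92.2 to 240), intervals that cover counting error only.

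Lif, leukaemia inhibitory factor, started from a low level in both lines. It was at 1.33, 1.15 and 1.32 CPM in WT medium and 15.4, 15.9 and 18.8 CPM in WT LPS. In the KO line it was at 0.544, 0.729 and 0.406 CPM in medium and 7.50, 8.75 and 8.62 CPM under LPS. The 4 groups did not overlap, in the order KO medium, WT medium, KO LPS and WT LPS. The log2 fold change with LPS was 3.72 ± 0.20 in WT (adjusted p = 1.35e-07) and 3.89 ± 0.21 in KO (adjusted p = 1.30e-07).

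Osm, which encodes oncostatin M, varied little between replicates. Its level was 9.33, 9.77 and 9.88 CPM in WT medium and 90.3, 87.4 and 79.7 CPM in WT LPS. KO libraries held 4.45, 4.11 and 3.87 CPM in medium and 20.6, 21.1 and 21.0 CPM under LPS. The groups stood apart in the same order as for Lif. Its log2 fold change with LPS was 3.15 ± 0.08 in WT (adjusted p = 6.07e-10) and 2.33 ± 0.08 in KO (adjusted p = 5.74e-09).

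Among the IL-12 family, Il27, the p28 chain of IL-27, had the strongest response in WT. It was at 0.295, 0.389 and 0.218 CPM in WT medium and at 14.4, 11.8 and 9.50 CPM in WT LPS. In KO it was at 0.194, 0.619 and 0.365 CPM in medium and only 2.06, 1.36 and 1.91 CPM under LPS. The medium groups overlapped, and the WT LPS libraries lay above the KO LPS libraries, which lay above both medium groups. LPS raised Il27 by a log2 fold change of 5.31 ± 0.40 in WT (adjusted p = 1.87e-06) and 2.18 ± 0.36 in KO (adjusted p = 0.000872). Exons of Il27 overlap those of Apobr on the other strand in the GENCODE annotation (7.37% of its 31-base words occur in reverse in transcripts of other genes). The strand setting of the count is not given in the sources used here, so reads of that stretch may not be separable. Apobr itself was at 62.5 ± 5.1 CPM in WT LPS and 39.4 ± 8.0 CPM in KO LPS (SD, n = 3).

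Ebi3, the partner chain of p28, was expressed at rest in WT. It was at 6.76, 5.13 and 6.42 CPM in WT medium and 45.2, 39.9 and 39.1 CPM in WT LPS. KO libraries held 1.07, 0.773 and 0.933 CPM in medium and 13.8, 5.04 and 10.2 CPM under LPS. WT LPS stood above the other groups and KO medium below them, and KO LPS replicate 2 lay just below WT medium while the other KO LPS libraries lay above it. The log2 fold change with LPS was 2.76 ± 0.30 in WT (adjusted p = 3.92e-05) and 3.38 ± 0.32 in KO (adjusted p = 1.69e-05). Exons of Ebi3 overlap those of Gm16712 on the other strand, and 19.0% of its 31-base words occur in reverse in transcripts of other genes. Part of the Ebi3 count is therefore uncertain for the same reason. Gm16712 was at 9.78 ± 2.72 CPM in WT LPS and 2.52 ± 0.60 CPM in KO LPS.

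Il23a, the p19 chain of IL-23, was at 0.632, 0.887 and 0.639 CPM in WT medium and 5.96, 4.94 and 5.29 CPM in WT LPS. It was at 0.525, 0.773 and 0.811 CPM in KO medium and 1.52, 1.62 and 1.13 CPM in KO LPS. The medium groups overlapped and both LPS groups stood above them, with WT LPS on top. It rose by a log2 fold change of 2.91 ± 0.24 in WT (adjusted p = 4.82e-06) and 1.02 ± 0.24 in KO (adjusted p = 0.00519).

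The remaining chains, p40 and p35, were near the limit of detection. For Il12b, replicates 1, 2 and 3 held 3, 0 and 3 counts in WT medium and 17, 10 and 8 in WT LPS. The KO libraries held 4, 0 and 3 counts in medium and 1, 8 and 3 under LPS. The WT LPS libraries were at or above the counts of all others, with KO LPS replicate 2 equal to the lowest of them. The summed counts of 35 against 6 gave a ratio of 5.71 for LPS in WT (95% exact interval 2.38 to 16.6, counting error only). With no filter on low counts, edgeR called this rise (log2 fold change 2.36 ± 0.69, adjusted p = 0.0320). In KO the ratio was 1.75 (0.636 to 5.25). Il12a held 0 to 6 counts in every library, 6, 13, 5 and 8 in all in WT medium, WT LPS, KO medium and KO LPS, too few to show a difference at this depth.

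Il10 was called with LPS in WT and not in KO. WT libraries held 5, 9 and 0 counts in medium and 31, 32 and 29 under LPS. KO libraries held 4, 4 and 5 counts in medium and 3, 4 and 6 under LPS. WT LPS stood above the other 3 groups, which overlapped one another. LPS raised Il10 in WT by a log2 fold change of 2.65 ± 0.61 (adjusted p = 0.00700), a ratio of summed counts of 6.44 (3.65 to 12.2). The value moved to 3.55 without WT medium replicate 2, the library with 9 counts, and to 1.92 without WT medium replicate 3, the library with 0. Fitted on the WT groups alone the adjusted p was 0.0598. In KO the log2 fold change was 0.04 ± 0.80 (adjusted p = 0.973), and the ratio of 13 to 13 counts was 1.02 with an interval of 0.436 to 2.39, which includes a doubling.

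**Figure D1:**
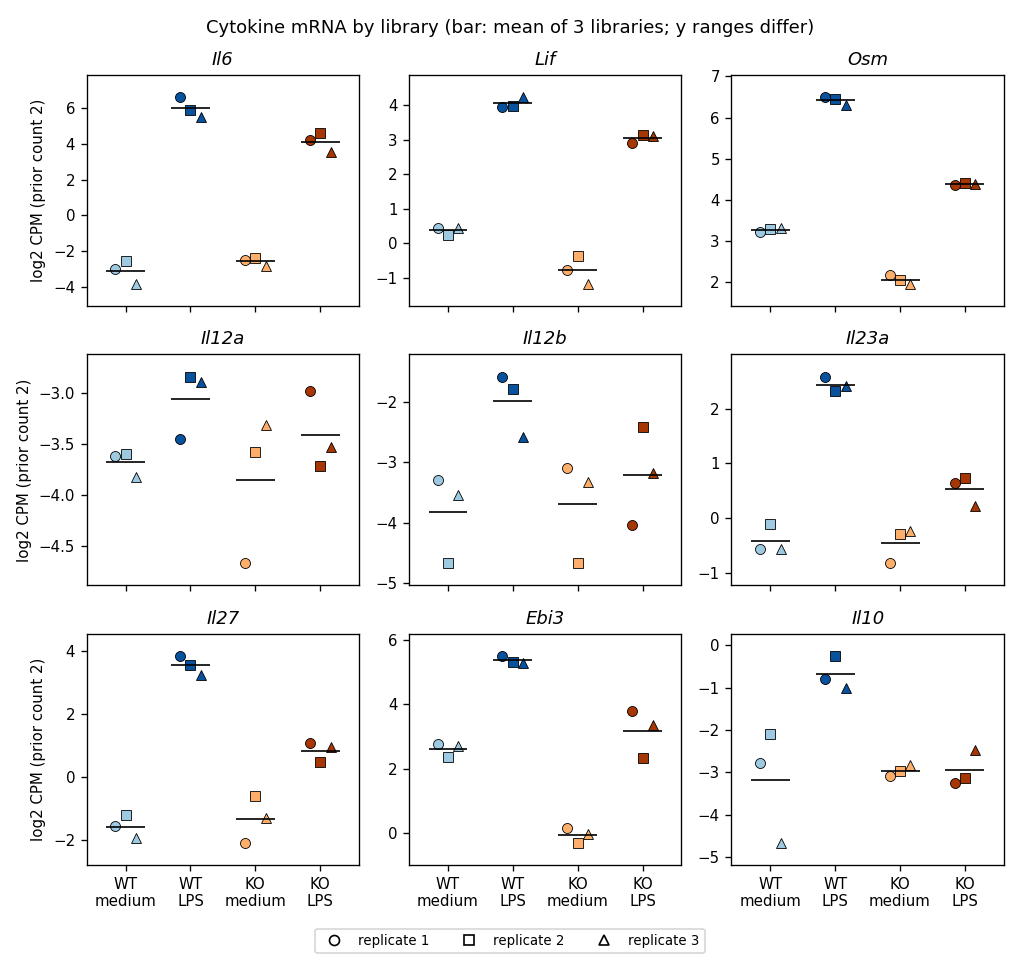
Level of each cytokine gene in every library on a log2 CPM scale with a prior count of 2. Symbols mark the replicate, bars the mean of 3 libraries, and the y ranges differ between panels. WT LPS stands above KO LPS for Il6, Lif, Osm, Il23a, Il27, Ebi3 and Il10, and Il12a and Il12b lie near 0 counts.

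**Figure D2:**
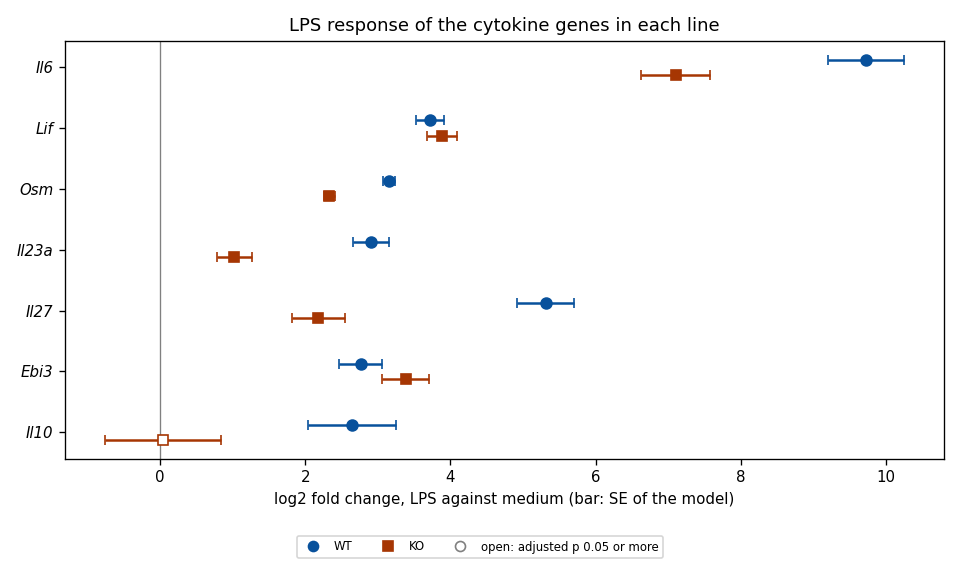
Log2 fold change of LPS against medium for the 7 members that passed the filter, in WT (circles) and KO (squares), with the SE of the model. Filled symbols had an adjusted p under 0.05, and the single open one is Il10 in KO at 0.04.

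Promoter sequences from RefSeq (table built on GRCm38.p6) were available for 5 of the 9 members, Il6, Lif, Il12a, Il12b and Ebi3, and were not given for Osm, Il23a, Il27 and Il10. Below, the 250 bases before the start site are printed, 5′ to 3′, for Il6, Lif and Ebi3, which rose in both lines, and for Il12b, which stayed near the detection limit. Capitals mark matches on either strand to GGG, 5 bases of any kind and CC (a loose form of the kappaB motif bound by NF-kB), TTNNGNAA (C/EBP), TGANTCA (AP-1) and GAAA, 2 bases of any kind and GAAA (the ISRE bound by interferon regulatory factors). Matches of the same motif on opposite strands can overlap.
Il6 (chr5:30012864-30013113, plus strand): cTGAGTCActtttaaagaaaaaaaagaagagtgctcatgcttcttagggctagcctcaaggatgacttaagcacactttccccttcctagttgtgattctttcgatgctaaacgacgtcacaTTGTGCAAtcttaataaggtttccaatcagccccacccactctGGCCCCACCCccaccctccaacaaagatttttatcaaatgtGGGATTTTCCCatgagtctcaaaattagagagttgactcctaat
Lif (chr11:4257318-4257567, plus strand): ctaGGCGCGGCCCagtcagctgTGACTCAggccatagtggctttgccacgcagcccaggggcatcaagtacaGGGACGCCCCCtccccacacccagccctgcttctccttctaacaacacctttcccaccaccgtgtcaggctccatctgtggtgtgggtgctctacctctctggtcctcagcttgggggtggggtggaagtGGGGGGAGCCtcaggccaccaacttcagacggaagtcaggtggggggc
Ebi3 (chr17:55952373-55952622, plus strand): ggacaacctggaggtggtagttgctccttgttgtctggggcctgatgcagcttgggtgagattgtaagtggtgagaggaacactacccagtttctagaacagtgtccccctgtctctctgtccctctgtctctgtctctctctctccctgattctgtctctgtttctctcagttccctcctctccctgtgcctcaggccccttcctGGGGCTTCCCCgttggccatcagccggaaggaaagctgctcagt
Il12b (chr11:44399813-44400062, plus strand): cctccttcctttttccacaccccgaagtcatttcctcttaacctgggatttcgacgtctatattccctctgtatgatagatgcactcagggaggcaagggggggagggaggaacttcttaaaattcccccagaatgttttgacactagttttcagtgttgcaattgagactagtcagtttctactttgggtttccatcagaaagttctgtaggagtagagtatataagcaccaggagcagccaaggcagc

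The windows of Il6 and Ebi3 both held a kappaB match 44 to 35 bases before the start, GGGATTTTCC in Il6 and GGGGCTTCCC in Ebi3, each overlapped by a second match on the other strand. Il6 also held TTGTGCAA, a C/EBP match 128 to 121 bases before the start, and TGAGTCA, an AP-1 match 249 to 243 bases before it. Lif held kappaB matches, GGGACGCCCC among them, and an AP-1 match, TGACTCA. None of the 4 patterns occurred in the Il12b window, which says only that these letters are absent there. Of 2 windows for Il12a, 1 held a kappaB match. Such matches are common: of 32851 windows of 250 bases, 45.8% held the kappaB pattern, 36.8% C/EBP, 6.75% AP-1 and 2.98% the ISRE. They are a description of the letters and not evidence of binding.

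The lines were then compared in medium. Lif, Osm and Ebi3 were lower in resting KO cells, and the other tested members were not called. Ebi3 was 6.57-fold lower (log2 fold change -2.72 ± 0.32, adjusted p = 0.000150), Osm 2.33-fold lower (-1.22 ± 0.08, adjusted p = 1.23e-06) and Lif 2.27-fold lower (-1.18 ± 0.20, adjusted p = 0.00162). For each of these 3 genes, all KO libraries lay below all WT libraries, as for 19.6% of all genes tested (16% lay entirely above). These were 3 of 7 members, where 12.3% of all genes tested were called lower. No member was called higher by edgeR or DESeq2, nor at an unadjusted p under 0.05 (0 of 7), while 6.88% of all genes were called higher. That background moved when single libraries were left out: 1818 genes were called higher with all libraries, 6110 without WT medium replicate 2, and 907 to 1050 without WT medium replicate 1 or 3 or KO medium replicate 1 or 3. Without WT medium replicate 2, 5155 genes in place of 3256 were called lower. Il23a was at -0.03 ± 0.24 (adjusted p = 0.938), Il27 at 0.39 ± 0.39 (0.492), Il6 at 0.74 ± 0.75 (0.491) and Il10 at -0.04 ± 0.80 (0.976). The wide errors of Il6 and Il10 come with medium counts of at most 9 per library. A fit of protein-coding genes on their own also called 3 members lower.

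Under LPS, all 7 members that passed the filter were lower in KO cells than in WT cells. The largest difference was in Il27, 6.69-fold lower, and the smallest in Lif, 2.01-fold lower. Il10 was 6.28-fold lower, but it passed the filter through its WT LPS libraries and held 13 counts in all in KO LPS. Its place among the 7 is therefore a description only. Called lower were 12.7% of all genes tested, with 7.87% called higher (2080 genes, and 1382 without WT LPS replicate 1). All KO libraries lay below all WT libraries for each of the 7, as for 19.6% of all genes tested, with 19.3% entirely above. No member was called higher by edgeR or DESeq2, or at an unadjusted p under 0.05 (0 of 7). Within the IL-6 family, Osm was lower by a log2 fold change of -2.04 ± 0.08 (adjusted p = 1.99e-08), Il6 by -1.88 ± 0.32 (adjusted p = 0.00177) and Lif by -1.01 ± 0.18 (adjusted p = 0.00153). In the IL-12 family, Il27 was at -2.74 ± 0.34 (adjusted p = 0.000140), Ebi3 at -2.10 ± 0.29 (adjusted p = 0.000352) and Il23a at -1.92 ± 0.23 (adjusted p = 0.000118). Il10 was at -2.65 ± 0.62 (adjusted p = 0.00921), a ratio of summed counts of 0.159 (95% exact interval 0.0818 to 0.286). As a description, the median over the 7, Il10 included, was -2.04, beside 0.07 over all genes tested. Il12b, which did not pass the filter, had 12 counts in KO against 35 in WT, a ratio of 0.387 (0.183 to 0.763, counting error only), and the ranges of the groups overlapped. With no filter on low counts, edgeR did not call this difference (log2 fold change -1.41 ± 0.60, adjusted p = 0.214).

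The KO LPS libraries did not rank alike for every member. Replicate 2 was the highest of the 3 for Il6, Lif, Osm and Il23a and the lowest for Il27 and Ebi3. In that library 10.4% of counts fell on identifiers with no symbol, where the other KO LPS libraries had 6.13% and 8.18%. Without it, the line difference under LPS was -2.15 for Il6, -2.58 for Il27 and -1.79 for Ebi3, and all 7 members were still called lower. In WT LPS, replicate 1 was the highest library for Il6, Osm, Il23a, Il27 and Ebi3.

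**Figure D3:**
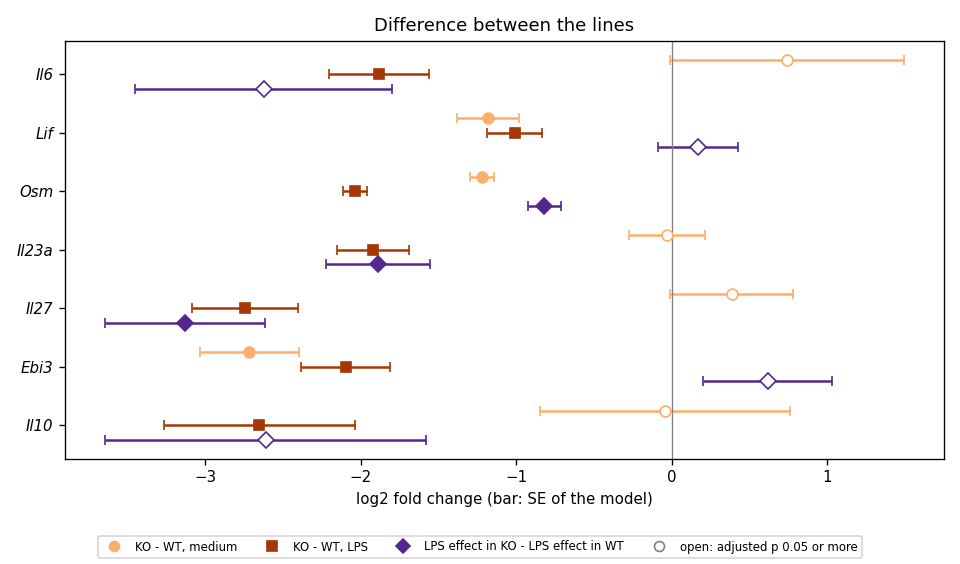
Log2 fold changes with the SE of the model for KO against WT in medium (circles), KO against WT under LPS (squares) and the interaction, the LPS effect in KO minus that in WT (diamonds). Filled symbols had an adjusted p under 0.05. All 7 squares lie at -1.01 or below, while the circles are filled only for Lif, Osm and Ebi3.

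The interaction asks whether the LPS response itself differed between the lines. It was called for Il27, Il23a and Osm, whose induction was smaller in KO. The log2 difference of the responses was -3.13 ± 0.52 for Il27 (adjusted p = 0.0124), -1.89 ± 0.34 for Il23a (adjusted p = 0.0179) and -0.82 ± 0.11 for Osm (adjusted p = 0.00392). Of all genes tested, 0.908% were called lower in the interaction and 0.693% higher. Il6 (-2.62 ± 0.83, adjusted p = 0.189) and Il10 (-2.61 ± 1.03, adjusted p = 0.292) were not called, although their unadjusted p-values in the same edgeR fit across all genes were 0.00926 and 0.0276. Il6 passed with DESeq2 (adjusted p = 0.0122). Il10 passed without WT medium replicate 2 (log2 difference -3.57, adjusted p = 0.0364), a library whose absence also raised the genes called lower from 240 to 2391 and those called higher from 183 to 1606. Without WT LPS replicate 1 the genes called higher numbered 69, and without KO medium replicate 3 those called lower numbered 116. The Il23a call was lost in 4 of 12 fits with a library left out (replicate 1 of either WT group and replicate 3 of either KO group), with adjusted p from 0.0521 to 0.0666. Lif (0.17 ± 0.26, adjusted p = 0.786) and Ebi3 (0.62 ± 0.41, adjusted p = 0.539) had positive estimates that were not called. No member was called higher by edgeR, by DESeq2 or at an unadjusted p under 0.05 (0 of 7). These comparisons use the same libraries, so the values of a gene in the interaction and in the comparisons of the lines are not independent.

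Il27 and Ebi3, whose products pair, were called in different comparisons. Il27 was called between the lines under LPS and in the interaction and not in medium, while Ebi3 was lower in KO both in medium and under LPS and was not called in the interaction. Per length of exons, Ebi3 exceeded Il27 in every library. The ratio of Ebi3 to Il27, each in CPM per kb, was 20.3, 11.6 and 26.0 in WT medium, 2.78, 3.00 and 3.65 in WT LPS, 4.87, 1.11 and 2.26 in KO medium, and 5.92, 3.28 and 4.74 in KO LPS. The WT medium libraries lay above all others in this ratio, and the WT LPS and KO LPS ranges overlapped. In WT LPS the level was 35.9 ± 2.9 CPM per kb for Ebi3 and 11.6 ± 2.4 for Il27 (SD, n = 3), and in KO LPS it was 8.40 ± 3.83 and 1.74 ± 0.36.

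For IL-23, p19 far exceeded p40 under LPS. Il23a was at 2.40 ± 0.23 CPM per kb in WT LPS and 0.633 ± 0.115 in KO LPS. Il12b was at 0.113 ± 0.044 and 0.0406 ± 0.0321 CPM per kb in the same groups, and Il12a at 0.0483 ± 0.0155 and 0.0335 ± 0.0156. The ratio of Il23a to Il12b was 17.8, 17.3 and 36.5 in WT LPS and between 9.63 and 61.3 in KO LPS, where 1 to 8 counts of Il12b per library leave it imprecise. Per length, the order of the members in WT LPS was Osm (37.8 ± 2.4 CPM per kb), Ebi3, Il6 (27.7 ± 11.2), Il27, Lif (3.84 ± 0.42), Il23a, Il10 (0.456 ± 0.136), Il12b and Il12a. Osm, Ebi3 and Il6 did not differ beyond their spread. In KO LPS, Osm (9.20 ± 0.12), Ebi3 and Il6 (7.51 ± 2.63) again led, followed by Lif (1.91 ± 0.16) and Il27 at 1.74, which also lay within their spread. Il23a (0.633), Il10 (0.0713 ± 0.0319), Il12b and Il12a came last, the latter 3 within their spread. In WT medium, Ebi3 (5.29 ± 0.75 CPM per kb) and Osm (4.25 ± 0.13) led, and Il23a (0.320 ± 0.065), Il27 (0.295 ± 0.084) and Lif (0.291 ± 0.024) followed within their spread. In KO medium, Osm (1.82 ± 0.13) led, ahead of Ebi3 (0.802 ± 0.128). Il6 was at 0.0337 ± 0.0203 CPM per kb in WT medium and 0.0538 ± 0.0111 in KO medium, in the range of Il10 (0.0763 ± 0.0744 and 0.0681 ± 0.0090).

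**Figure D4:**
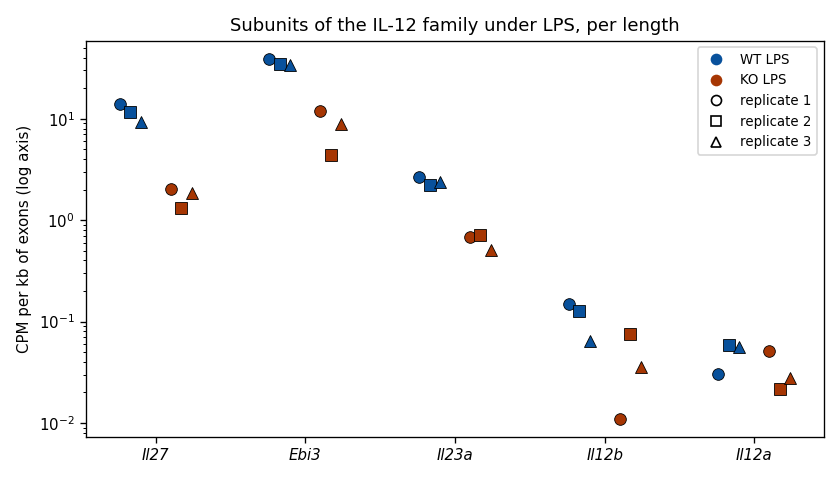
CPM per kb of exons for the 5 IL-12 family chains in the LPS libraries, on a log axis. Each point is 1 library, with symbols for the replicate. Il27, Ebi3 and Il23a stand higher in WT LPS than in KO LPS, and Il12b and Il12a lie at 0.15 CPM per kb or below in every library.

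The genes whose log2 CPM profile over the 12 libraries came closest to each member were found by the root mean square difference of profiles centred on their means, among up to 9836 other genes, as a description. For Il6 they were Tnf (0.74), Gbp2 (0.76) and Isg15 (0.87), set against a root mean square size of 4.04 for the profile of Il6 itself. Lif came closest to Bcl3 (0.21), a nuclear IkB protein, then Dusp8 (0.36) and the adhesion molecule Icam1 (0.37), with 1.96 for its own profile. For Osm the nearest were Ier3 (0.32), Sp100 (0.34) and Tor3a (0.34). Il23a had Rnd1 (0.29), Setdb2 (0.32) and Rapgef2 (0.37), and Il27 had Ifi211 (0.52), Cdc42ep2 (0.52) and Igtp (0.61). Ebi3 came closest to Oas3 (0.26), Acp5 (0.35) and Irf7 (0.38), of which Oas3 and Irf7 are interferon-stimulated genes.

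Of 12 receptor chains tested of 13 listed, 2 rose and 1 fell with LPS in WT, where 16.3% of all genes were called in each direction (median log2 fold change 0.10, beside -0.07 over all genes). The IL-10 receptor chains rose, Il10ra by 1.08 ± 0.27 (adjusted p = 0.0120) and Il10rb by 0.59 ± 0.10 (adjusted p = 0.000985). Il6ra, the IL-6 binding chain, fell by 1.23 ± 0.11 on the log2 scale, from 58.4 ± 1.3 to 24.8 ± 0.2 CPM (SD, n = 3). In KO, 3 rose, among them Il10rb and Il6st, and 1 fell, again Il6ra, beside 25.3% and 26.8% of all genes. Under LPS, 2 of the 12 were higher in KO, beside 7.87% of all genes. They were Il12rb1, the chain shared by the IL-12 and IL-23 receptors, at 1.33 ± 0.17 (adjusted p = 0.000198), and Il6st at 0.45 ± 0.12 (adjusted p = 0.0187). The Il6st call was lost without WT LPS replicate 1 or 2 or KO LPS replicate 1 or 3, with adjusted p from 0.0622 to 0.0846. In medium, Il12rb1 was also higher, from 2.22 ± 0.16 CPM in WT to 5.90 ± 0.99 CPM in KO (SD, n = 3). Il12rb2 was lower at -0.43 ± 0.13 (adjusted p = 0.0329), a call lost without any of 6 libraries (WT medium or WT LPS replicates 1 and 3, and KO medium replicates 1 and 3), with adjusted p up to 0.102.

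Of 10 JAK-STAT genes tested of 11 listed, 9 rose and 1 fell with LPS in either line, with medians of 1.81 in WT and 1.44 in KO, where 16.3% and 25.3% of all genes were called higher. In WT the cytokine-induced inhibitor Cish rose by 5.07 ± 0.23 and Pias3, an inhibitor of STAT3, fell by 0.72 ± 0.13 on the log2 scale. Under LPS, 3 were lower in KO, beside 12.7% of all genes, and 7 were not called (median -0.37, beside 0.07 over all genes). Cish averaged 24.1 ± 3.8 CPM over the WT LPS libraries and 1.54 ± 0.37 over those of KO (SD, n = 3), 15.6-fold lower (adjusted p = 2.44e-07). Pias3 was 1.93-fold lower (adjusted p = 0.000312). The interaction was also called for Cish, at -3.97 ± 0.30 (adjusted p = 0.000118). Stat3, through which IL-6 and IL-10 signal, was at -0.25 ± 0.11 between the lines under LPS (adjusted p = 0.137). In medium, Tyk2 was lower in KO at -1.05 ± 0.20 (adjusted p = 0.00365) and Pias3 at -0.45 ± 0.13 (adjusted p = 0.0309). The Pias3 call was lost without WT medium replicate 1 or 3 or any KO medium replicate, with adjusted p from 0.0640 to 0.117.

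Transcription factors that act on these cytokine genes rose with LPS in most cases, 12 of 13 in each line (medians 2.36 in WT and 2.68 in KO), beside 16.3% of all genes in WT and 25.3% in KO. Nfkbiz, an atypical IkB protein needed for Il6 induction, rose by 5.08 ± 0.12 in WT, and Irf1 by 3.88 ± 0.36. Under LPS, 2 of the 13 were higher and 4 lower in KO, beside 7.87% and 12.7% of all genes (median -0.18, beside 0.07 over all genes). Maf, a factor known to drive Il10, was 5.32-fold lower (log2 fold change -2.41 ± 0.59, adjusted p = 0.0133), with WT LPS libraries between 2.63 and 8.72 CPM and KO LPS libraries between 0.901 and 1.01 CPM. Its call was lost without WT LPS replicate 1, KO LPS replicate 1 or KO LPS replicate 2 (adjusted p 0.0513 to 0.0571), and the value was -1.78 without WT LPS replicate 1. Nfil3, a repressor of Il12b, was 2.42-fold lower (adjusted p = 6.70e-06). The 2 C/EBP genes of the list went opposite ways under LPS. Cebpb was lower in KO, at -0.77 ± 0.12 under LPS (adjusted p = 0.000602) and -0.82 ± 0.12 in medium (adjusted p = 0.000521). Cebpd was higher in KO under LPS at 0.68 ± 0.16 (adjusted p = 0.0102) and had a larger LPS response there (interaction 1.27 ± 0.23, adjusted p = 0.0205). That interaction was lost in 7 of 12 fits with a library left out (WT medium replicate 1, each WT LPS replicate, replicates 1 and 3 of KO medium, and KO LPS replicate 3), with adjusted p from 0.0501 to 0.0744. In medium, 4 of the 13 were lower, beside 12.3% of all genes, among them Maf at -3.29 ± 0.61 (adjusted p = 0.00339, and -2.62 without WT medium replicate 1 or -3.91 without KO medium replicate 1) and Nfil3 at -0.85 ± 0.11 (adjusted p = 0.000200).

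Of 6 genes that control cytokine mRNA stability or the kinases upstream, 6 rose with LPS in each line, beside 16.3% of all genes in WT and 25.3% in KO. In WT the RNase Zc3h12a (Regnase-1), which degrades Il6 mRNA, rose by 4.28 ± 0.12 and Zfp36 (tristetraprolin), which destabilises cytokine mRNAs, by 4.06 ± 0.17. Under LPS, 3 of the 6 were lower in KO, beside 12.7% of all genes (median -0.38, beside 0.07 over all genes), with Zfp36 2.19-fold lower (adjusted p = 0.000290) and Arid5a, which stabilises Il6 mRNA, 1.43-fold lower (adjusted p = 0.00801).

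Genes known to be induced by IL-10 or STAT3 in macrophages had 6 of 7 higher with LPS in WT, beside 16.3% of all genes, led by the IL-1 receptor antagonist Il1rn (4.41 ± 0.22) and the kinase Pim1 (3.96 ± 0.19). In KO, 5 rose and 2 fell, the latter Ddit4 and Il4ra, beside 25.3% and 26.8% of all genes. Under LPS, 5 of the 7 were lower in KO and 1 higher, beside 12.7% and 7.87% of all genes (median -0.88, beside 0.07 over all genes). Il1rn averaged 3983 ± 494 CPM over the WT LPS libraries and 782 ± 170 over those of KO (SD, n = 3), 5.09-fold lower, and Ddit4 was 3.13-fold lower. Pim1 was higher at 0.54 ± 0.17 (adjusted p = 0.0393). Its call was lost in 8 of 12 fits with a library left out (WT medium replicate 1, each WT LPS replicate, and replicates 1 and 3 of both KO groups), with adjusted p up to 0.169. In medium, Il1rn (-4.19 ± 0.22) and Bcl3 (-1.15 ± 0.17) were lower in KO. The interaction was positive for Il1rn (1.84 ± 0.27, adjusted p = 0.00719), which started 18.2-fold lower in KO. It was negative for Il4ra, an IL-4 receptor chain (-1.38 ± 0.15, adjusted p = 0.00180), which rose in WT and fell in KO.

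Of 10 other cytokines of these families, Il31, Il19, Il20, Il22 and Il24 did not pass the filter. Il11, an IL-6 family cytokine, was named here after its values were seen. Of the 5 tested it was the only gene called between the lines under LPS, and it was higher in KO. Among all genes tested, 7.87% were called higher and 12.7% lower. Il11 was at 0.447 ± 0.088 CPM in WT LPS and 1.43 ± 0.31 CPM in KO LPS (SD, n = 3). Its libraries held only 22 to 25 counts in WT LPS and 47 to 80 in KO LPS. The log2 fold change was 1.69 ± 0.39 (adjusted p = 0.00849), opposite in direction to Il6, Lif and Osm. Its interaction was not called (1.75 ± 0.55, adjusted p = 0.184).

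**Figure D5:**
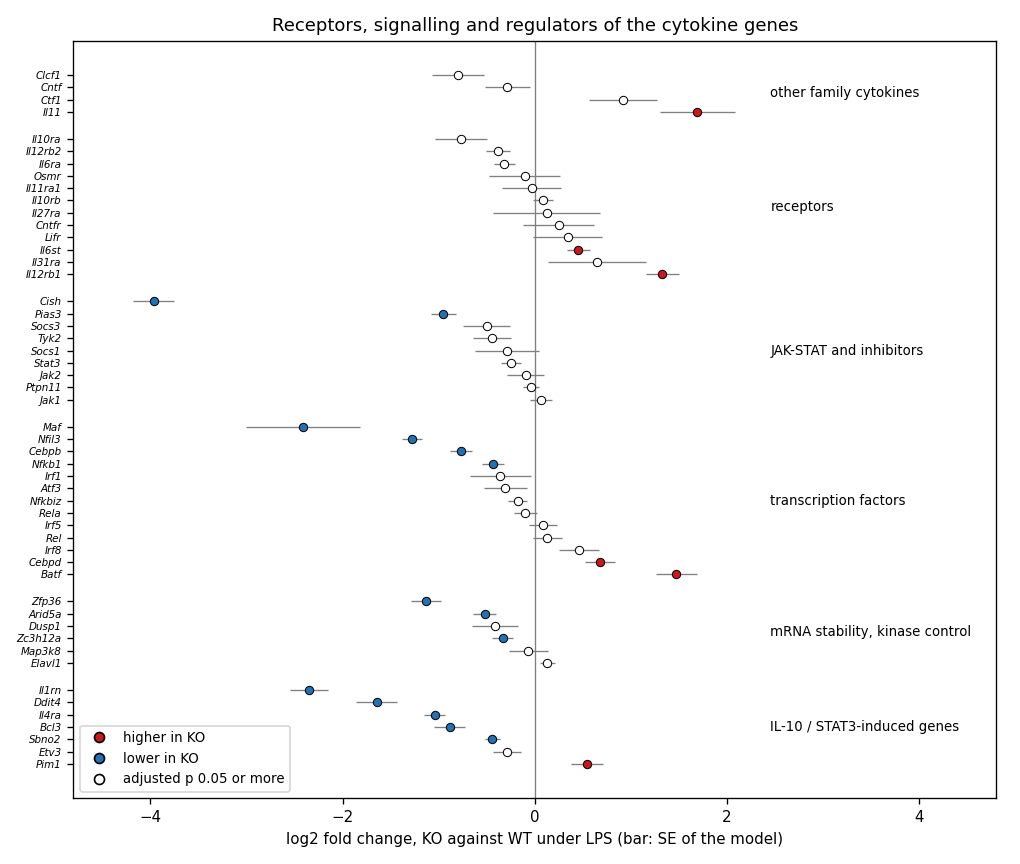
Log2 fold change of KO against WT under LPS, with the SE of the model, for genes of 6 lists around these cytokines. Red and blue points are genes called higher and lower in KO, and white points were not called. Cish lies farthest to the left at -3.96, and Il11, Il12rb1 and Batf are the called genes beyond 1 on the right.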

How the data were processed

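The authors deposited 1 table of raw read counts per Ensembl gene for the 12 libraries. Per the submitters' processing notes, the tools were STAR 2.7.9a, featureCounts, Trimmomatic 0.39, FastQC 0.11.9 and DESeq2 1.32.0, with GRCm39 as the build, and the sources used here give no annotation, strand setting or handling of multi-mapping reads. Symbols, gene classes and exon lengths came from GENCODE M21 (GRCm38), which named 52083 of 55416 identifiers. Genes were kept with filterByExpr (count minimum 10), scaled by TMM and tested with edgeR 4.0.16 in R 4.3.3 (glmQLFit, robust, 4 group means, all 12 libraries, Benjamini-Hochberg over 26420 genes). The SE of a log2 fold change, in the text and figures, was derived from its test. It is the absolute log2 fold change divided by the square root of the quasi-likelihood F statistic. Depth was 39.7 M to 72.9 M counts, and intervals for summed counts are exact conditional binomial intervals at 95%.

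The members, the lists and the tests were chosen with earlier results of these data known. The rule for names took all 9 members, Mok and, per list, up to 2 called genes in each direction (mean log2 CPM 1 or more), in 4 comparisons. For members with a mean log2 CPM above 0 it also took the 3 genes of nearest profile (mean log2 CPM 2 or more). Stat3, Batf, Il11, Cebpb and, under LPS, Pias3 fall outside that rule and were named after their values were seen. Some genes of the lists are counted but not reported here by name. Alternatives were other scalings, filters, DESeq2 1.42.0, a replicate block, only the groups compared, protein-coding genes and each library left out.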

Additional observations from a re-analysis of the deposited data

Results flagged for a closer look

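The LPS response differed between the lines, by the interaction term of the edgeR fit, for 3 cytokine genes. The LPS effect in KO minus that in WT was -3.13 for Il27, -1.89 for Il23a and -0.82 for Osm on the log2 scale. No rule for single outlying libraries was applied to these groups of 3. Replicates were compared in pairs by the chi-square of their counts per degree of freedom. It was 155 for KO LPS replicates 1 and 2, 85.8 for KO LPS replicates 2 and 3 and 134 for WT medium replicates 2 and 3. The other pairs were at 19.1 to 64.0.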

How the results depend on the processing

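Of 26 called results for the members over the 5 comparisons, 510 of 515 refits kept the direction and the call, and 5 lost the call. These were Il10 with LPS in WT when only its groups were fitted (log2 fold change 2.55, adjusted p = 0.0598) and the Il23a interaction in 4 of the 12 fits that leave out a library. In 168 refits of the 9 results that were not called, 3 became called and 16 changed sign with no call. Refits in which a member did not pass the filter or had no adjusted p are left out of these totals. The stricter filter (count minimum 50) removed Il10 in this way. Il10 with LPS in KO was at -0.21 with library size alone, -0.081 with no filter, -0.11 with protein-coding genes and between -0.34 and 0.23 with a library left out. In medium, KO against WT was between -0.18 and 0.12 for Il23a, -0.10 and 0.70 for Il27 and -0.73 and 0.91 for Il10 with a library left out. The replicate numbers were not taken to pair the samples, since not every same-numbered pair of libraries had deviations correlated over 0.1. They were over 0.1 in 11 of 18 pairs (-0.37 to 0.39, median 0.13, beside -0.06 for other pairs), and 6 of 12 libraries correlated best with their own number. With the replicate number as a block, Il10 in medium was at 0.0078, the Il6 interaction was called (-2.60, adjusted p = 0.0367), and 311 genes in place of 183 were higher in the interaction. Counts over all genes moved more than the members. With LPS in WT, library size alone gave 2104 higher and 9985 lower in place of 4303 and 4297, and in KO it gave 4182 higher in place of 6679. It moved the median of all genes to -0.40 in WT and -0.29 in KO, and no called member changed direction. Protein-coding genes gave 4075 higher and 4192 lower (in place of 7070) with LPS in KO, and 385 in place of 240 lower in the interaction. The fit of only the medium groups gave 802 in place of 1818 genes higher in KO. In the interaction, higher counts were 360 with library size alone, 280 with the stricter filter and 442 with DESeq2, which gave 415 lower. Leaving out a library gave 2094 to 6337 lower with LPS in WT, 907 to 6110 higher and 2477 to 5155 lower for KO in medium, 1382 to 2288 higher for KO under LPS, and 69 to 1606 higher and 116 to 2391 lower in the interaction. The cause of these shifts was not tested. Depth limits Il12a, Il12b and Il10, and Il6 in medium.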
